A study of Danio rerio with 15 samples.

Results

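The collagen genes are the 51 rows of the deposited count table, of 32105 rows in all, whose zebrafish gene name begins with a collagen chain designation (col, a type number, a and a chain number, in either case) and that had at least 10 counts in at least 2 libraries. Of 56 rows with such a name, 5 fell short. These were both COL10A1 rows, COL8A1, col28a2b and a row named col19a1 (ENSDARG00000096073), and the nearest of them, COL10A1 (ENSDARG00000101535), reached at most 7 counts in a library. Just inside the rule, col28a1b reached 10 counts in 2 libraries and col23a1b in 3. By type the 51 rows fell into 15 fibrillar chains, 6 chains of basement membrane type IV, 3 multiplexins, 7 chains of beaded filament type VI and its relative type XXVIII, 11 fibril-associated (FACIT) chains, 5 network and anchoring chains and 4 transmembrane chains.

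RNA was measured by poly(A) sequencing in cells positive for kdrl, an endothelial receptor of vascular endothelial growth factor, from zebrafish embryos at 28 hours post fertilization. There were 3 genotypes: wildtype, mutant for sf3b1, which encodes a core subunit of the spliceosome, and sibling, for which no sf3b1 alleles are labelled. Every group, controls included, carried overexpression of the cytokine-responsive transcription factor Stat3, either wildtype (WT-Stat3) or constitutively active (CA-Stat3). A group with no added Stat3 was not analysed here. For every genotype there were 2 WT-Stat3 and 3 CA-Stat3 libraries, 15 in 6 groups. The labels give neither the means of Stat3 overexpression nor the mutant allele. They also do not say whether libraries of a group are from different clutches, so the spread behind each p-value may be technical.

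Collagens are extracellular matrix proteins whose chains wind into helices. Fibrillar collagens form the cables of connective tissue, and FACIT collagens sit on the surface of those cables. Type IV collagen forms the sheet-like network of the basement membrane on which endothelial cells rest, and the multiplexins, types XV and XVIII, lie in the zone next to it. The terminal fragment of type XVIII, endostatin, is known in mammals as an inhibitor of blood vessel growth. Newly made chains are hydroxylated, glycosylated and folded in the endoplasmic reticulum and trimmed and crosslinked outside the cell. In vertebrate embryos, fibrillar collagens are known mainly as products of mesenchyme, notochord, cartilage and skin, and type IV chains also of endothelium.

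Library totals were 3625121 to 8170371 counts, and the collagen rows held 0.45% to 0.666% of the counts of wildtype libraries, 0.279% to 0.68% of sibling libraries and 0.18% to 0.258% of mutant libraries. Replicate 2 of mutant WT-Stat3 stood apart. It was the shallowest library, its row zgc:158463 held 39.5% of its counts against 16.3% to 27% elsewhere, and its scaling factor was 0.793 against 0.905 to 1.09, so the main counts of calls are also given for the other 14 libraries. That leaves 1 library in the mutant WT-Stat3 group, on which the mutant values of that construct then rest. SF3B1, the mutated gene, was at 82 to 108 CPM in the 5 mutant libraries and 157 to 208 CPM in the 10 others, a log2 fold change of -0.97 ± 0.11 (SE) for mutant minus wildtype (edgeR adjusted p = 1.76e-05). The endothelial marker kdrl, at 329 to 884 CPM, was not called (0.18 ± 0.19, edgeR adjusted p = 0.501). CPM values are counts scaled to a common library size. They are not per transcript length, so levels are compared between libraries and never between genes. A gene is called where the edgeR p-value, adjusted by Benjamini-Hochberg (BH) over all 18020 genes tested, is under 0.05, and all 51 collagen rows were tested.

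Nearly all collagen rows that changed in sf3b1 mutant cells were lower, and a pair of multiplexins was higher. Averaged over both constructs, 28 of the 51 rows were lower and 2 higher in mutants than in wildtypes, where 14.8% of all genes tested were lower and 13.9% higher. Against siblings, 27 were lower and 2 higher, where 13.9% of all genes were lower and 12.4% higher. The comparisons share the mutant libraries. The median log2 fold change of the 51 rows was -0.98 against wildtypes and -1.08 against siblings, where the medians of all genes tested were -0.03 and -0.02. For 26 rows the mutant libraries all lay below the wildtype libraries in both constructs, a separation that 13.1% of all genes showed, and for 1 row every mutant library lay above (11.7% of all genes). Against siblings, 15 rows were separated downward (10.6% of all genes) and 0 upward (10.3%). Without replicate 2 of mutant WT-Stat3, 17 rows were lower and 1 higher against wildtypes, where 9.47% of all genes were lower, and 16 lower and 1 higher against siblings, where 8.43% of all genes were lower. Without replicate 2 of sibling WT-Stat3, which leaves 1 library in that group, fewer collagen rows were called against siblings. A smaller share of all genes was also called lower in that fit.

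Summed over the 51 rows, the level was 4323 and 4265 CPM in wildtypes with WT-Stat3 and 4706, 6322 and 4906 CPM with CA-Stat3. Siblings had 2562 and 5119, then 3921, 5642 and 6933 CPM, and mutants 2655 and 2280.2, then 2351, 2313 and 2345 CPM. The 5 mutant libraries lay close together and below all 5 wildtype libraries. The sibling libraries spread from the level of the mutants to above the wildtypes, and replicate 1 of sibling WT-Stat3, at the level of the mutants, was the lowest sibling library for 29 of the 51 rows. How often all genes were lowest in that library was not counted, so this count is not read as particular to collagens.

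**Figure D1:**
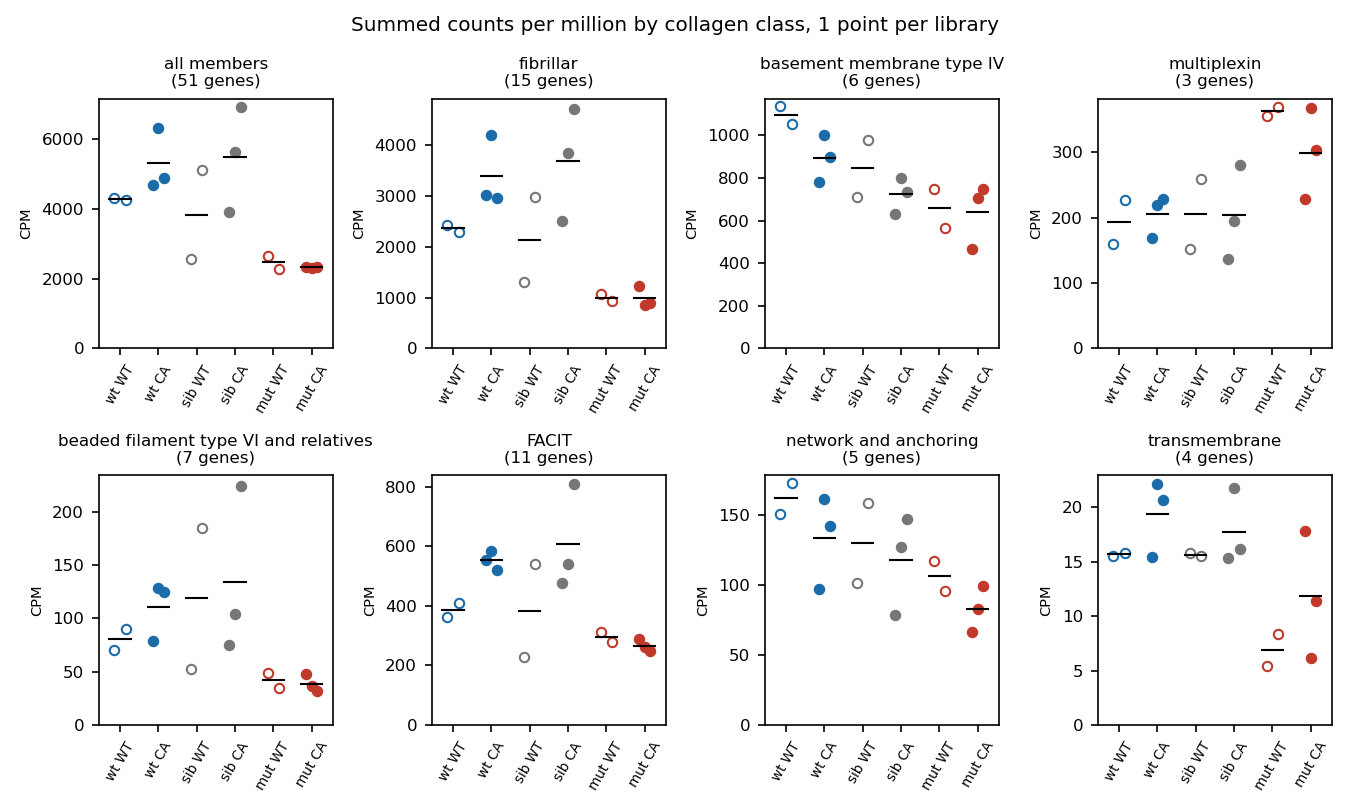
Summed library-scaled counts (CPM, y axis) of all 51 collagen rows and of each of 7 classes, for wildtype (wt, blue), sibling (sib, grey) and mutant (mut, red) libraries with WT-Stat3 (WT, open points) or CA-Stat3 (CA, filled points). Each point is a library and each black line a group mean. The fibrillar sums of mutants, 855 to 1236 CPM, lie below those of all wildtype and sibling libraries, while the multiplexin sums of mutants, 228 to 369.8 CPM, lie at or above most others.

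Cells other than endothelium can contribute collagen transcripts to sorted cells, so marker lists of other cell types were read beside the collagens. In such bulk samples, fewer cells of a type and less RNA per cell cannot be told apart. Of 10 mesenchyme and fibroblast markers tested, 0 were higher and 6 lower in mutants against wildtypes, with a median of -1.85, and 6 were lower against siblings (2 without replicate 2 of sibling WT-Stat3). PDGFRA, a growth factor receptor of mesenchyme, had 52.1 ± 17.2 CPM in wildtypes and 14.7 ± 1.94 CPM in mutants (SD, n = 5 each) and fell by 1.80 ± 0.24 (edgeR adjusted p = 5.36e-05). The mesenchymal transcription factors twist1a and foxc1b were at -2.44 ± 0.43 and -1.61 ± 0.29, both called. Of the other calls, those of LUM (-2.41) and foxd1 (-2.35) were lost with limma. The LUM call was also lost without replicate 2 (-1.95) of mutant WT-Stat3. That of twist1b was lost without replicate 1 (-1.57) of wildtype WT-Stat3 or replicate 1 (-1.46) of mutant WT-Stat3. LUM, foxd1 and twist1b were named after their values were seen. The mesenchyme sum was 100.3 to 176 CPM in wildtypes, 77.2 to 159 CPM in siblings and 41.8 to 55.1 CPM in mutants, with PDGFRB at 0 in every library. Mutants did not overlap with either other genotype. The part of these markers in the collagen differences was not tested.

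Lists of other cell types were read the same way. Of 12 epidermal markers 4 were lower (2 without replicate 1 of wildtype WT-Stat3 or replicate 2 of mutant WT-Stat3), and their sums were 2252 to 3232 CPM in wildtypes and 1135 to 2062 CPM in mutants. Of 5 cartilage markers 0 were called, with a median of -0.34 and sums of 90.8 to 126 and 70.2 to 94 CPM. Of 4 notochord and hypochord markers, epyc was lower, with overlapping sums of 86.1 to 133 and 69.6 to 123 CPM. The median of these 4 markers was -1.28 against wildtypes (-1.81 within CA-Stat3) and -1.25 against siblings. The epyc call was lost without replicate 1 (-1.87) of wildtype WT-Stat3, replicate 1 (-2.03) or 3 (-2.40) of wildtype CA-Stat3, either mutant WT-Stat3 replicate (-4.57 and -1.94) or replicate 2 (-2.09) or 3 (-2.10) of mutant CA-Stat3, and with limma (-2.89). Of 3 neural crest markers 2 were lower (1 without any 1 of the 4 wildtype or mutant WT-Stat3 libraries), with FOXD3 at 0 throughout. Of 2 muscle markers 0 were called, though the muscle sum ran from 15.4 to 1833 CPM among siblings against 29.6 to 142 CPM among mutants and 112 to 359 CPM among wildtypes. All 5 macrophage and neutrophil markers were lower (sums of 740.3 to 1470.4 CPM in wildtypes and 89.9 to 358 CPM in mutants). Of 6 erythroid markers 3 were higher and 0 lower. The klf1 call among them was lost without replicate 1 (1.22) of wildtype WT-Stat3 or replicate 2 (1.17) of mutant WT-Stat3. With limma the call of the neural crest marker ltk was lost (-2.46). Both were named after their values were seen. The endothelial sums overlapped, at 3326 to 5210.2 CPM in wildtypes, 1791 to 4244 CPM in siblings and 2903 to 4844 CPM in mutants. Of 11 endothelial markers, sox18 was lower (-0.86 ± 0.22) and clec14a higher (0.70 ± 0.21), and clec14a lost its call without either wildtype WT-Stat3 library (0.71 and 0.60), replicate 1 of mutant WT-Stat3 (0.43) or replicate 2 (0.63) or 3 (0.62) of mutant CA-Stat3. Against siblings 4 endothelial markers were higher and 0 lower, with a median of 0.39 (2 higher without replicate 2 of sibling WT-Stat3), and the notochord list had 1 higher and 2 lower (0 higher without replicate 1 of sibling WT-Stat3; 0 lower without replicate 2 of sibling WT-Stat3, replicate 3 of sibling CA-Stat3, replicate 2 of mutant WT-Stat3 or replicate 2 or 3 of mutant CA-Stat3; 1 lower without replicate 3 of wildtype CA-Stat3 or replicate 1 of mutant WT-Stat3). Their part in the collagen values against siblings was not tested.

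Of 15 fibrillar chains, 12 were lower and 0 higher in mutants than in wildtypes, with a median of -1.51, and 13 were lower and 0 higher than in siblings, with a median of -1.56 (8 in each comparison when replicate 2 of mutant WT-Stat3 was left out). The chains of type I collagen, the main collagen of bone, skin and tendon, are encoded here by the rows COL1A1, col1a1a and COL1A2. In wildtypes COL1A1 (ENSDARG00000035809) was at 483 and 457 CPM with WT-Stat3 and at 490.2, 948 and 560.3 CPM with CA-Stat3. Siblings were at 227 and 478, then 426, 813 and 723 CPM, and mutants at 79.7 and 119, then 145, 85.7 and 77.2 CPM. All 5 mutant libraries lay below all 10 others. COL1A1 fell by 2.47 ± 0.27 (log2, SE) against wildtypes, a 5.54-fold difference (edgeR adjusted p = 1.01e-05), and by 2.25 ± 0.27 against siblings (edgeR adjusted p = 2.79e-05).

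Wildtype libraries held 335 and 337 CPM of col1a1a (ENSDARG00000012405) with WT-Stat3 and 333, 644 and 456 CPM with CA-Stat3. Sibling libraries held 163 and 465, then 292, 603 and 703 CPM, and mutant libraries 96.9 and 138, then 143, 99.8 and 117 CPM. The mutant libraries again lay below every wildtype and sibling library, and col1a1a fell by 1.76 ± 0.29 against wildtypes and 1.78 ± 0.29 against siblings (edgeR adjusted p = 0.000293 and 0.00036). For COL1A2 (ENSDARG00000020007) the wildtype values were 383 and 344 CPM with WT-Stat3 and 349, 641 and 440.5 CPM with CA-Stat3. Those of siblings were 185 and 379, then 298, 554 and 554 CPM, and those of mutants 109 and 118, then 128, 77.4 and 96.9 CPM. No mutant library reached the lowest wildtype or sibling library. COL1A2 fell by 1.96 ± 0.24 against wildtypes and 1.76 ± 0.24 against siblings (edgeR adjusted p = 2.49e-05 and 7.84e-05). In siblings, all 3 rows were lowest in replicate 1 of the WT-Stat3 group, which also had the lowest mesenchyme sum of the siblings, 77.2 CPM. Its notochord (56.5 CPM), cartilage (67 CPM), neural crest (20.2 CPM), epidermal (1902 CPM) and muscle (15.4 CPM) sums were also the lowest of the siblings. Its macrophage and neutrophil (734 CPM) and erythroid (1057 CPM) sums were not, and its endothelial sum was the highest (4244 CPM). The part of these cells in the type I values was not tested.

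Type V collagen, which starts and limits the growth of type I fibrils, had 3 chains called lower and 2 not called. COL5A2 (ENSDARG00000031678) had 144 and 92.4 CPM in wildtype WT-Stat3 libraries and 125, 210.1 and 127 CPM in wildtype CA-Stat3 libraries. In the same order siblings had 57.5 and 91.3, then 116, 188 and 129 CPM and mutants 19 and 21.3, then 38.2, 34.4 and 21.9 CPM. The highest mutant library was below the lowest other library. COL5A2 had the smallest p-value of the collagen rows in both genotype comparisons, and fell by 2.42 ± 0.23 against wildtypes (5.36-fold, edgeR adjusted p = 2.75e-06) and by 2.04 ± 0.23 against siblings (4.11-fold, edgeR adjusted p = 1.75e-05). col5a3b, at 12.9 to 50.9 CPM in wildtypes, 12.1 to 55.3 CPM in siblings and 3.5 to 9.06 CPM in mutants, fell by 2.09 ± 0.40 and 2.14 ± 0.40 (edgeR adjusted p = 0.001 and 0.00103). COL5A1 was called with a smaller log2 fold change. In wildtypes COL5A1 (ENSDARG00000012593) was at 313 and 254 CPM with WT-Stat3 and at 281, 496 and 299 CPM with CA-Stat3. Siblings were at 169 and 343, then 282, 397 and 405 CPM, and mutants at 224 and 167, then 161, 214 and 215 CPM. Mutants lay below wildtypes, while replicate 1 of sibling WT-Stat3 lay within the range of the mutants. COL5A1 fell by 0.70 ± 0.21 against wildtypes and 0.63 ± 0.21 against siblings (edgeR adjusted p = 0.0198 and 0.0353). col5a3a was at 28.8 to 50.6 CPM in wildtypes and 29.9 to 41.1 CPM in mutants (-0.05 ± 0.18, not called), and col5a2b, with 0.588 to 2.47 and 0.349 to 6.2 CPM, was at 0.71 ± 0.50 and not called.

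Types II and XI build the thin fibrils of cartilage and of the notochord sheath, and both COL2A1 rows are told apart by identifier. Wildtype libraries held 155 and 176 CPM of COL2A1 (ENSDARG00000011407) with WT-Stat3 and 193, 267 and 214 CPM with CA-Stat3. Sibling libraries held 97.3 and 248, then 142, 239 and 314 CPM, and mutant libraries 82.9 and 54.4, then 79.7, 61.3 and 59 CPM. Mutant libraries lay below all others. This row fell by 1.51 ± 0.25 against wildtypes and 1.56 ± 0.25 against siblings (edgeR adjusted p = 0.000343 and 0.000368). For COL2A1 (ENSDARG00000069093) the wildtype values were 194 and 176 CPM with WT-Stat3 and 571, 277 and 280.3 CPM with CA-Stat3. Those of siblings were 127 and 416, then 432, 366 and 908 CPM, and those of mutants 161 and 121, then 235, 57.9 and 83.8 CPM. Here the spread within groups was wide, with the highest sibling library far above the lowest. Within each construct the mutant libraries lay below the wildtype libraries, although the ranges over both constructs overlapped. Mutants and siblings overlapped with WT-Stat3. The second row was at -0.98 ± 0.39 against wildtypes, not called (edgeR adjusted p = 0.0698), and fell by 1.56 ± 0.40 against siblings (edgeR adjusted p = 0.00891), a call lost without replicate 2 (-1.03) of sibling WT-Stat3 or replicate 2 (-1.45) of mutant WT-Stat3. Against wildtypes this row passed the threshold in 7 of the 24 alternative settings, among them limma (-1.19, adjusted p = 0.0347), the fit of the compared libraries alone (-0.97, edgeR adjusted p = 0.0309) and the fit without replicate 1 of mutant CA-Stat3 (-1.43, edgeR adjusted p = 0.00665).

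Among the type XI chains, col11a1b fell by 1.29 ± 0.21 against wildtypes (edgeR adjusted p = 0.000282), with no overlap between 159 to 312 CPM in wildtypes and 71.8 to 94 CPM in mutants, and by 1.08 ± 0.21 against siblings. COL11A1, at 135 to 288 CPM in wildtypes and 56.1 to 125 CPM in mutants, fell by 1.06 ± 0.28 (edgeR adjusted p = 0.00896), and COL11A2, at 31.4 to 151 and 7.0 to 55.9 CPM, by 1.36 ± 0.49 (edgeR adjusted p = 0.0468). The ranges of COL11A2 overlapped over both constructs, although within each construct its mutant libraries lay below its wildtype libraries. The remaining fibrillar chains had few counts. col27a1b had 8.11 and 8.91, then 5.62, 8.94 and 7.41 CPM in wildtypes and 2.04 and 2.09, then 2.02, 1.28 and 4.05 CPM in mutants, and fell by 1.80 ± 0.31 (edgeR adjusted p = 0.000521). col24a1, at 1.37 to 2.82 CPM in wildtypes and 0 to 0.865 CPM in mutants, fell by 2.49 ± 0.78 (edgeR adjusted p = 0.0251).

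Of the fibrillar calls against wildtypes, that of COL5A1 was lost without replicate 1 (-0.66) of wildtype WT-Stat3, replicate 2 (-0.54) of wildtype CA-Stat3 or replicate 2 (-0.60) of mutant WT-Stat3, and that of COL11A1 without replicate 2 (-0.83) of mutant WT-Stat3. The col24a1 call was lost without replicate 1 (-2.53) of wildtype WT-Stat3, replicates 1 (-2.37) and 2 (-2.62) of mutant WT-Stat3 or replicate 2 (-2.38) of mutant CA-Stat3, and the COL11A2 call without replicates 1 (-1.46) and 2 (-1.32) of wildtype WT-Stat3, replicate 1 (-1.07) of wildtype CA-Stat3, replicate 1 (-1.36) of sibling CA-Stat3, replicate 2 (-1.11) of mutant WT-Stat3 or replicates 2 (-1.22) and 3 (-1.14) of mutant CA-Stat3. COL11A2 also missed the threshold with DESeq2 (-1.39). Against siblings, the COL5A1 call was lost without replicate 2 (-0.36) of sibling WT-Stat3, replicates 2 (-0.59) and 3 (-0.60) of sibling CA-Stat3, replicate 2 (-0.52) of mutant WT-Stat3 or replicates 1 (-0.59) and 2 (-0.66) of mutant CA-Stat3, and with limma (-0.54). The col27a1b call against siblings was lost in 7 of 24 settings, limma and the fit of the compared libraries alone among them. The col24a1 call against siblings was lost in 4, limma among them, and the COL11A2 call in 3.

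**Figure D2:**
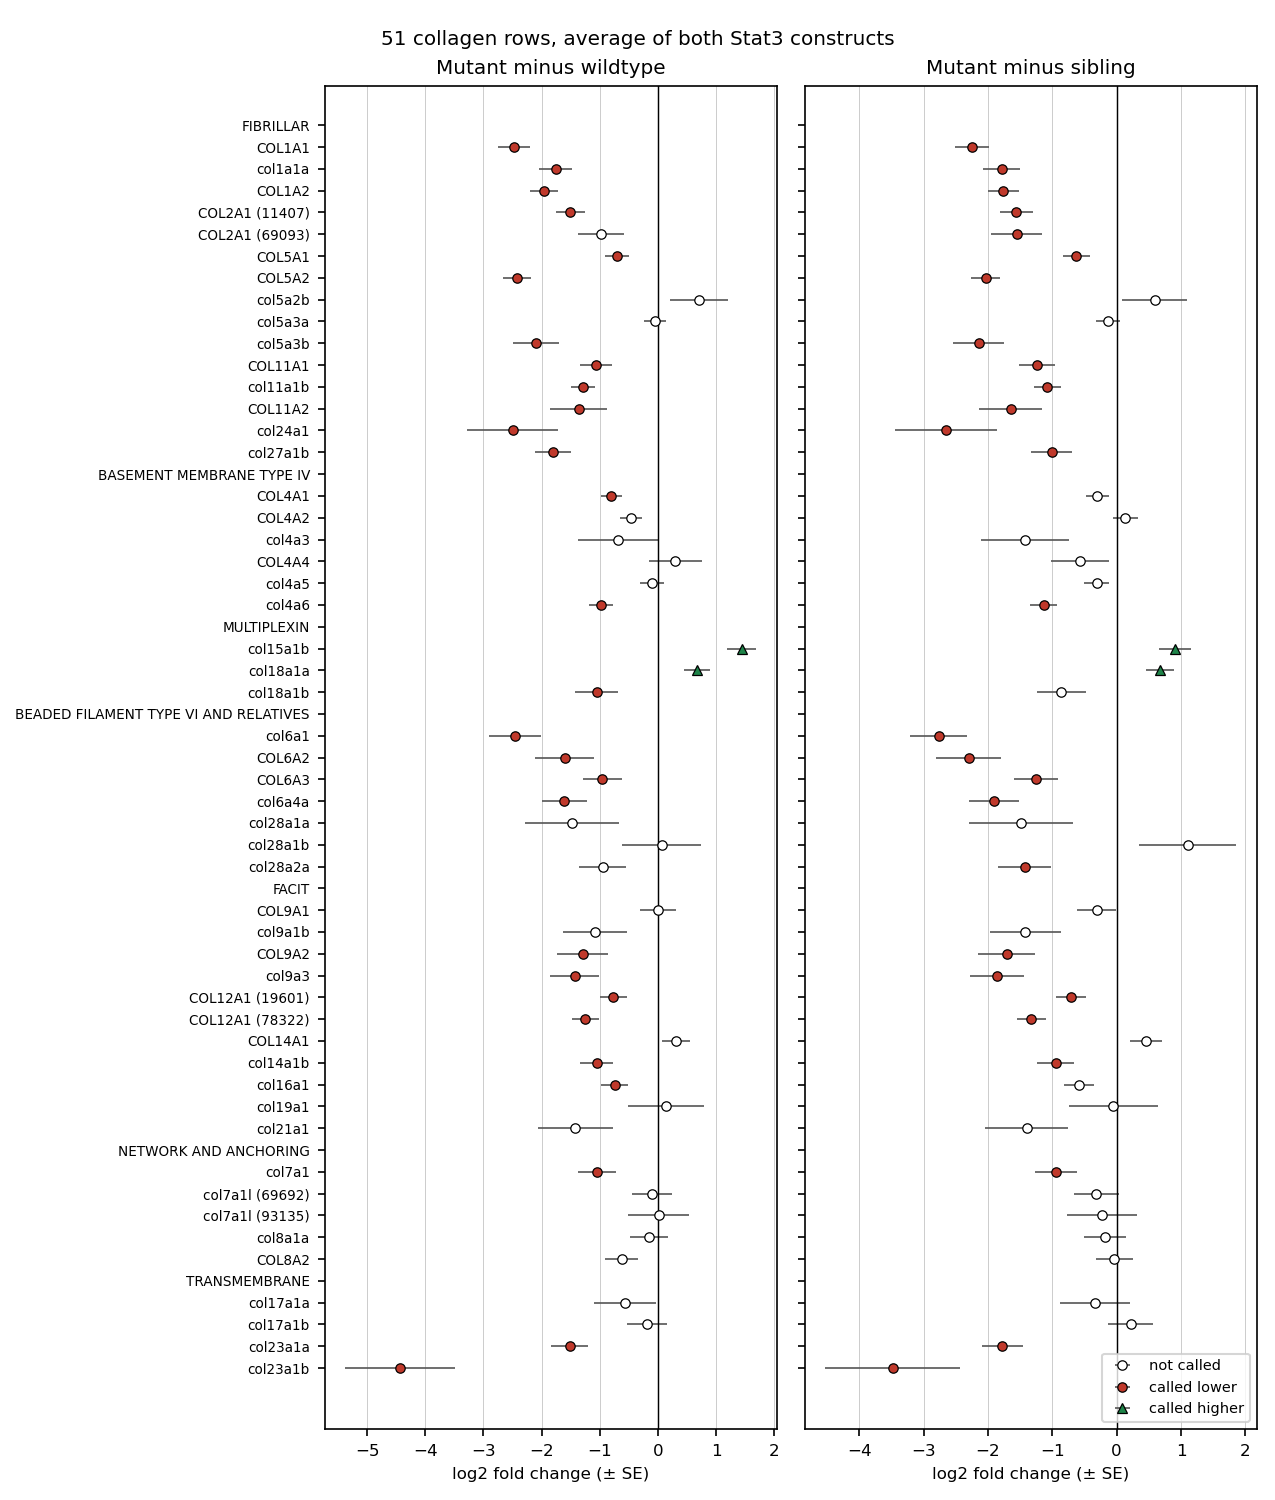
Log2 fold change with its standard error (x axis) of each of the 51 collagen rows (y axis, grouped by class) for mutant minus wildtype (left) and mutant minus sibling (right), averaged over both Stat3 constructs. Red circles were called lower, green triangles called higher and open circles not called by edgeR. Of 15 fibrillar rows, 12 are red on the left and 13 on the right, and the 2 green triangles in each panel are the multiplexins col15a1b and col18a1a. Digits in brackets end the identifier of rows that share a name.

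Of 6 chains of type IV, the network of the basement membrane, 2 were lower and 0 higher in mutants against wildtypes, with a median of -0.57, and 1 was lower against siblings, with a median of -0.44. That 1 of 6 is near the 13.9% of all genes that were lower against siblings. Whether this class differed from the fibrillar class was not tested. COL4A1 (ENSDARG00000055009) had 562 and 485 CPM in wildtype WT-Stat3 libraries and 344, 448 and 380.5 CPM in wildtype CA-Stat3 libraries. In the same order siblings had 335 and 405, then 279, 334 and 218 CPM and mutants 307 and 212, then 173, 275 and 331 CPM. Mutants lay below wildtypes within each construct, and siblings lay between them or overlapped with mutants. COL4A1 fell by 0.80 ± 0.18 against wildtypes (edgeR adjusted p = 0.00362) and was at -0.30 ± 0.18 against siblings, not called (edgeR adjusted p = 0.228). In wildtypes COL4A2 (ENSDARG00000104110) was at 393 and 349 CPM with WT-Stat3 and at 233, 327 and 259 CPM with CA-Stat3. Siblings were at 208 and 279, then 191, 208 and 143 CPM, and mutants at 272 and 196, then 139.5, 275 and 268 CPM. COL4A2, whose product joins with that of COL4A1, was at -0.46 ± 0.19 against wildtypes and 0.14 ± 0.19 against siblings, neither called (edgeR adjusted p = 0.0775 and 0.63), and its mutant libraries overlapped with both other genotypes. Against wildtypes COL4A2 passed the threshold without replicate 1 of mutant WT-Stat3 (-0.64), without replicate 3 of sibling CA-Stat3 (-0.50) and with no filter on low counts (-0.53).

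Of the partner chains col4a5 and col4a6, col4a6 was called lower in both comparisons. Wildtype libraries held 95.3 and 105 CPM of col4a5 (ENSDARG00000052063) with WT-Stat3 and 109, 121 and 137 CPM with CA-Stat3. Sibling libraries held 82.2 and 155, then 84.4, 139.6 and 194 CPM, and mutant libraries 108 and 102, then 96.3, 109 and 98.6 CPM. The groups overlapped, and col4a5 was at -0.10 ± 0.20 against wildtypes and -0.31 ± 0.20 against siblings (not called). For col4a6 (ENSDARG00000052061) the wildtype values were 84.1 and 106 CPM with WT-Stat3 and 85, 98.2 and 115 CPM with CA-Stat3. Those of siblings were 75.8 and 126, then 74.1, 112 and 165 CPM, and those of mutants 52.8 and 50.5, then 54.8, 41 and 45.3 CPM. Every mutant library was below every other library, and col4a6 fell by 0.98 ± 0.20 against wildtypes and 1.14 ± 0.20 against siblings (edgeR adjusted p = 0.00206 and 0.000844). The test of a difference between the paired chains was not run. Counts of col4a3 and COL4A4 were low, at 0 to 6.72 CPM and 1.39 to 11.1 CPM over all libraries, and their mutant minus wildtype values, -0.68 ± 0.69 and 0.30 ± 0.46, were not called. Neither the COL4A1 nor the col4a6 call against wildtypes was lost under any of the 24 alternative settings.

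The multiplexins held the 2 collagen rows that were higher in mutants. col15a1b (ENSDARG00000061848) had 16.7 and 13.3 CPM in wildtype WT-Stat3 libraries and 16.1, 13.5 and 15.8 CPM in wildtype CA-Stat3 libraries. In the same order siblings had 23.1 and 28.6, then 13.4, 13.8 and 29 CPM and mutants 63.9 and 36.2, then 22.6, 35 and 42.7 CPM. Mutants lay above all 5 wildtype libraries, and with WT-Stat3 also above both sibling libraries, while with CA-Stat3 replicate 3 of the siblings lay among the mutants. col15a1b, which encodes a type XV chain, rose by 1.44 ± 0.25 against wildtypes (2.72-fold, edgeR adjusted p = 0.000437) and by 0.91 ± 0.24 against siblings (1.87-fold, edgeR adjusted p = 0.0117). In wildtypes col18a1a (ENSDARG00000036558) was at 136 and 209 CPM with WT-Stat3 and at 150.4, 201 and 209.8 CPM with CA-Stat3. Siblings were at 125 and 229, then 120.5, 174 and 249 CPM, and mutants at 289 and 331, then 203, 329.9 and 259 CPM. The WT-Stat3 groups were separated and the CA-Stat3 groups overlapped. col18a1a, a type XVIII chain, rose by 0.67 ± 0.22 against wildtypes and 0.68 ± 0.22 against siblings (edgeR adjusted p = 0.0295 and 0.0306). Wildtype libraries held 5.88 and 5.59 CPM of col18a1b (ENSDARG00000095901) with WT-Stat3 and 1.87, 4.35 and 2.71 CPM with CA-Stat3. Sibling libraries held 3.77 and 2.0, then 3.32, 7.17 and 2.77 CPM, and mutant libraries 1.81 and 2.09, then 2.31, 1.92 and 1.84 CPM. This other type XVIII chain fell by 1.05 ± 0.37 against wildtypes (edgeR adjusted p = 0.0427) and was at -0.86 ± 0.38 against siblings (not called, edgeR adjusted p = 0.102). Mutants and wildtypes were separated with WT-Stat3 and overlapped with CA-Stat3.

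The col15a1b call against wildtypes was kept under all 24 alternative settings. Against siblings it was lost without replicate 1 (0.81) of sibling WT-Stat3 or replicate 1 (0.64) of mutant WT-Stat3. The col18a1a call was lost against wildtypes without replicate 1 (0.49) of wildtype WT-Stat3, replicate 1 (0.61) of wildtype CA-Stat3, replicates 1 (0.68) and 2 (0.63) of mutant WT-Stat3 or replicate 2 (0.58) of mutant CA-Stat3, and against siblings without replicate 1 (0.47) of sibling WT-Stat3, replicates 1 (0.57) and 2 (0.66) of sibling CA-Stat3, replicate 2 (0.64) of mutant WT-Stat3 or replicate 2 (0.58) of mutant CA-Stat3, and in the fit of the compared libraries alone (0.67). The col18a1b call against wildtypes was lost without replicates 1 (-1.07) and 2 (-1.11) of wildtype WT-Stat3, replicates 2 (-0.86) and 3 (-1.11) of wildtype CA-Stat3, replicates 1 (-1.04) and 2 (-1.10) of mutant WT-Stat3 or replicates 2 (-1.04) and 3 (-1.02) of mutant CA-Stat3, with limma (-0.96) and when libraries were thinned to the shallowest (-0.77). Summed over the 3 rows, mutants had 355 and 369.8 CPM with WT-Stat3 and 228, 367 and 303 CPM with CA-Stat3, against 159 to 228 CPM in wildtypes and 137 to 281 CPM in siblings.

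**Figure D3:**
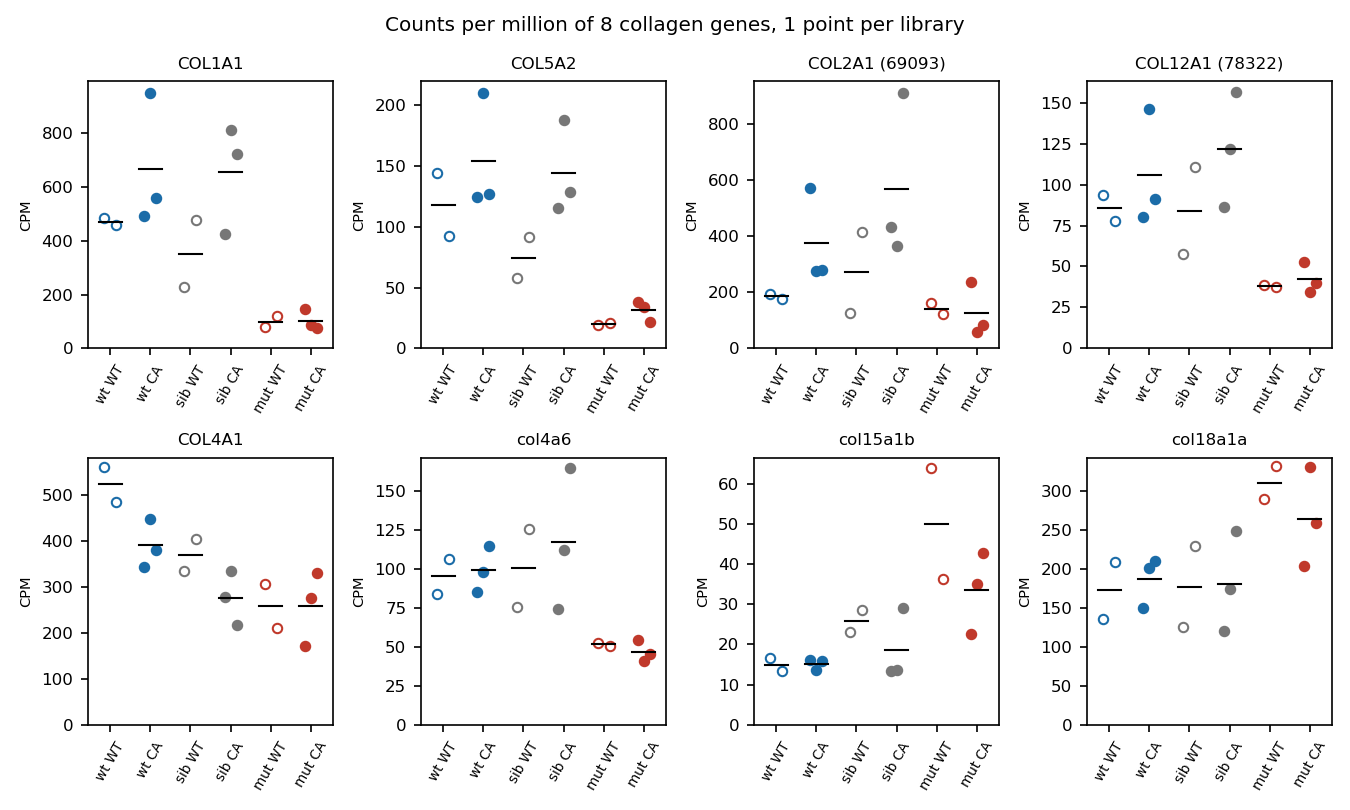
Library-scaled counts (CPM, y axis) of 8 collagen rows, 4 from the fibrillar and FACIT classes (top) and 4 from the type IV and multiplexin classes (bottom), in wildtype (wt, blue), sibling (sib, grey) and mutant (mut, red) libraries with WT-Stat3 (WT, open) or CA-Stat3 (CA, filled). Points are libraries and black lines group means. COL1A1 and COL5A2 show mutants below all other libraries, COL4A1 shows sibling means between those of wildtypes and mutants, and col15a1b shows mutants above all wildtypes.

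Type VI collagen forms beaded microfilaments around cells, and type XXVIII is its relative. Of 7 rows, 4 were lower and 0 higher against wildtypes, with a median of -1.48, and 5 were lower against siblings. Of all genes, 14.8% and 13.9% were lower in these comparisons. Without replicate 2 of wildtype CA-Stat3, either replicate of mutant WT-Stat3 or replicate 3 of mutant CA-Stat3, 2 were lower against wildtypes, and without replicate 2 of sibling WT-Stat3, 3 were lower against siblings. All 4 type VI chains were called by edgeR in both comparisons, while with limma col6a1 kept both calls and COL6A2, COL6A3 and col6a4a missed the threshold in both (adjusted p of 0.128, 0.098 and 0.0518 against wildtypes and 0.0847, 0.0898 and 0.0591 against siblings). For col6a1 (ENSDARG00000074908) the wildtype values were 12.9 and 10.9 CPM with WT-Stat3 and 12.9, 20.6 and 15.5 CPM with CA-Stat3. Those of siblings were 5.07 and 26.1, then 12, 17.3 and 29.8 CPM, and those of mutants 2.04 and 0.697, then 5.33, 4.27 and 3.32 CPM. Mutants were below wildtypes in both constructs, and replicate 1 of sibling WT-Stat3 fell within the range of the mutants. col6a1 fell by 2.45 ± 0.44 against wildtypes (5.48-fold, edgeR adjusted p = 0.000688) and by 2.76 ± 0.44 against siblings (6.79-fold, edgeR adjusted p = 0.000354). col6a4a (ENSDARG00000079752) had 15.4 and 9.66 CPM in wildtype WT-Stat3 libraries and 14, 25.3 and 15.7 CPM in wildtype CA-Stat3 libraries. In the same order siblings had 6.6 and 30.1, then 11.7, 18.3 and 28 CPM and mutants 4.53 and 3.14, then 5.19, 6.84 and 7.0 CPM. The groups of wildtypes and mutants did not overlap, and col6a4a fell by 1.61 ± 0.39 against wildtypes and 1.90 ± 0.39 against siblings (edgeR adjusted p = 0.00543 and 0.00203). Both col6a4a calls missed the threshold with limma, as given above.

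COL6A2, at 4.23 to 16 CPM in wildtypes and 1.66 to 3.14 CPM in mutants, fell by 1.60 ± 0.51 (edgeR adjusted p = 0.0271), and COL6A3, at 7.1 to 14.5 and 3.87 to 7.32 CPM, by 0.96 ± 0.34 (edgeR adjusted p = 0.0431). The COL6A2 call was lost without replicate 1 (-1.35) of wildtype WT-Stat3, replicate 2 (-1.40) of wildtype CA-Stat3, replicates 1 (-1.59) and 2 (-1.65) of mutant WT-Stat3 or replicate 3 (-1.49) of mutant CA-Stat3. The COL6A3 call was lost without replicate 1 (-0.69) of wildtype WT-Stat3, replicates 2 (-0.89) and 3 (-0.96) of wildtype CA-Stat3, replicates 1 (-0.98) and 2 (-0.96) of mutant WT-Stat3 or replicates 1 (-1.01), 2 (-0.97) and 3 (-0.92) of mutant CA-Stat3. Of the type XXVIII rows, col28a2a had the most counts. In wildtypes col28a2a (ENSDARG00000076321) was at 18.1 and 54.4 CPM with WT-Stat3 and at 32.2, 52.1 and 73 CPM with CA-Stat3. Siblings were at 28.1 and 84.2, then 35, 46.9 and 116 CPM, and mutants at 31.7 and 19.2, then 28.2, 17.1 and 13.1 CPM. It was at -0.95 ± 0.41 against wildtypes, not called (edgeR adjusted p = 0.0895), with overlap in the WT-Stat3 groups, and fell by 1.43 ± 0.41 against siblings (edgeR adjusted p = 0.0171), a call lost without replicate 2 (-0.96) of sibling WT-Stat3 or replicate 2 (-1.27) of mutant WT-Stat3, and with limma (-1.23). Against wildtypes col28a2a passed the threshold without replicate 1 of wildtype WT-Stat3 (-1.29), without replicate 3 of sibling CA-Stat3 (-0.98), in the fit of the compared libraries alone (-0.95) and with no filter on low counts (-1.01). col28a1a and col28a1b, at most 2.96 and 2.76 CPM in any library, were not called.

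FACIT chains bind to the surface of fibrils, type IX to those of type II and types XII and XIV to those of type I. Of 11 rows, 6 were lower and 0 higher against wildtypes, with a median of -1.05, where 14.8% of all genes were lower. Against siblings 5 were lower, where 13.9% of all genes were lower (3 without replicate 3 of mutant CA-Stat3, where 11.2% of all genes were lower). Fewer rows were called in both comparisons without replicate 2 of mutant WT-Stat3, and against siblings without replicate 2 of sibling WT-Stat3. Each of these fits leaves 1 library in a group, and a smaller share of all genes was also called lower. Wildtype libraries held 93.6 and 78.1 CPM of COL12A1 (ENSDARG00000078322) with WT-Stat3 and 79.9, 146 and 91.5 CPM with CA-Stat3. Sibling libraries held 57.7 and 111, then 86.1, 122 and 157 CPM, and mutant libraries 38.5 and 37.3, then 52.9, 34.4 and 40.2 CPM. Every mutant library was below every other. This row fell by 1.25 ± 0.23 against wildtypes and 1.33 ± 0.23 against siblings (edgeR adjusted p = 0.000699 and 0.000551). For COL12A1 (ENSDARG00000019601) the wildtype values were 115 and 127 CPM with WT-Stat3 and 109, 183 and 152 CPM with CA-Stat3. Those of siblings were 62.6 and 152, then 108, 159.9 and 197 CPM, and those of mutants 80.2 and 96.5, then 56.8, 80.8 and 72.2 CPM. Mutants lay below wildtypes, and replicate 1 of sibling WT-Stat3 was the lowest of its genotype, below both mutant WT-Stat3 libraries. This second type XII row fell by 0.77 ± 0.23 against wildtypes (edgeR adjusted p = 0.0191), a call lost without replicate 1 (-0.74) of mutant WT-Stat3. Against siblings it fell by 0.71 ± 0.23 (edgeR adjusted p = 0.0302), a call lost without replicate 2 (-0.35) of sibling WT-Stat3, replicate 3 (-0.62) of sibling CA-Stat3, replicates 1 (-0.67) and 2 (-0.77) of mutant WT-Stat3 or replicates 1 (-0.67) and 3 (-0.72) of mutant CA-Stat3, and with limma (-0.57).

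COL14A1 (ENSDARG00000005762) had 47.2 and 92.7 CPM in wildtype WT-Stat3 libraries and 52.8, 48.3 and 92.2 CPM in wildtype CA-Stat3 libraries. In the same order siblings had 47.4 and 78, then 40.2, 55.2 and 80.4 CPM and mutants 90.8 and 95.9, then 57.1, 86.1 and 78.1 CPM. The genotypes overlapped, and COL14A1 was at 0.31 ± 0.24 against wildtypes and 0.46 ± 0.25 against siblings (not called in this fit). The other type XIV row, col14a1b, was at 7.41 to 14.6 CPM in wildtypes and 3.13 to 7.32 CPM in mutants and fell by 1.05 ± 0.29 (edgeR adjusted p = 0.0117), a call lost without replicate 2 (-0.80) of wildtype WT-Stat3. Of the type IX chains, for which wildtypes and mutants held 16.5 to 74.8 and 3.83 to 21.2 CPM of col9a3 and 17.6 to 60.7 and 3.83 to 23.3 CPM of COL9A2, col9a3 fell by 1.43 ± 0.42 and COL9A2 by 1.29 ± 0.44 against wildtypes (edgeR adjusted p = 0.0165 and 0.0359), while col9a1b, at -1.09 ± 0.55, and COL9A1, at 0.00 ± 0.30, were not called. The col9a3 call was lost without replicate 2 (-1.15) of mutant WT-Stat3, and the COL9A2 call without replicates 1 (-1.37) and 2 (-1.28) of wildtype WT-Stat3, replicate 1 (-1.15) of wildtype CA-Stat3, replicate 2 (-0.96) of mutant WT-Stat3 or replicates 2 (-1.12) and 3 (-1.17) of mutant CA-Stat3, and with DESeq2 (-1.34). col9a1b passed the threshold without replicate 1 of mutant WT-Stat3 (-2.01), without replicate 1 of mutant CA-Stat3 (-1.65) and with no filter on low counts (-1.15). col16a1, at 30.4 to 59.99 CPM in wildtypes and 19.9 to 26.3 CPM in mutants, fell by 0.74 ± 0.23 (edgeR adjusted p = 0.0225), and its call was lost without replicate 1 (-0.76) of wildtype WT-Stat3, replicate 2 (-0.61) of wildtype CA-Stat3, replicate 2 (-0.68) of mutant WT-Stat3 or replicate 3 (-0.70) of mutant CA-Stat3, and with limma (-0.70). col19a1 and col21a1, at most 3.56 and 2.96 CPM, were not called.

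The 9 rows of types II, IX and XI, the collagens of cartilage and notochord sheath, often peaked in the same library of a genotype. The highest wildtype library was replicate 1 of CA-Stat3 for 7 of the 9 rows, the highest sibling library was replicate 3 of CA-Stat3 for 8, and the highest mutant library was replicate 1 of CA-Stat3 for 6. col9a1b, for example, had 20.8 and 21.3, then 127, 51.4 and 51.7 CPM in wildtypes, 6.25 and 50.3, then 85.6, 57.3 and 135 CPM in siblings, and 31.5 and 5.58, then 37, 7.69 and 9.95 CPM in mutants. The notochord and hypochord marker sum was also highest of its genotype in replicate 1 of wildtype CA-Stat3 (133 CPM) and in replicate 3 of sibling CA-Stat3 (141 CPM), but lowest of the mutants in replicate 1 of CA-Stat3 (69.6 CPM). Among siblings, replicate 3 of CA-Stat3 also had the highest sums of the multiplexins (281 CPM) and of type VI and its relatives (225 CPM). The sums of type IV, of network and anchoring and of transmembrane rows were highest in other sibling libraries. The sibling peak is therefore not particular to types II, IX and XI. How often other rows or all genes peaked in the libraries named was not counted. Replicate 3 of sibling CA-Stat3 also had the highest muscle sum of all libraries, 1833 CPM, and the lowest endothelial sum, 1791 CPM. The part of these cells in the peaks was not tested.

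Of 5 network and anchoring rows, 1 was lower and 0 higher in mutants against either genotype, near the 14.8% and 13.9% of all genes that were lower. In wildtypes COL8A2 (ENSDARG00000060893) was at 98.9 and 89.4 CPM with WT-Stat3 and at 29.7, 73.8 and 53.4 CPM with CA-Stat3. Siblings were at 61.4 and 63.4, then 28.3, 51.7 and 24.3 CPM, and mutants at 45.7 and 70.1, then 18.4, 37 and 52.9 CPM. COL8A2, a type VIII chain of vascular and corneal matrices, overlapped between genotypes within CA-Stat3, and was at -0.62 ± 0.29 against wildtypes and -0.03 ± 0.29 against siblings (not called). Against wildtypes it passed the threshold without replicate 1 of wildtype CA-Stat3 (-0.76), without replicate 3 of mutant CA-Stat3 (-0.82) and with no filter on low counts (-0.69). Wildtype libraries held 30.1 and 49.8 CPM of col7a1 (ENSDARG00000021720) with WT-Stat3 and 36.3, 59.6 and 58.7 CPM with CA-Stat3. Sibling libraries held 21.1 and 56.1, then 27.8, 42.7 and 67.9 CPM, and mutant libraries 33.3 and 10.8, then 19.5, 25.9 and 18.2 CPM. The anchoring fibril chain col7a1 fell by 1.05 ± 0.33 against wildtypes and 0.94 ± 0.33 against siblings (edgeR adjusted p = 0.0242 and 0.0443), though replicate 1 of mutant WT-Stat3 lay among the wildtypes. The class count against wildtypes was 2 without replicate 1 of wildtype CA-Stat3. With the replicate block the col7a1 call against siblings was lost. The col7a1 call against wildtypes was lost without replicate 2 (-0.89) of wildtype WT-Stat3, replicate 2 (-0.77) of mutant WT-Stat3 or replicate 3 (-1.005) of mutant CA-Stat3, and against siblings without replicates 2 (-0.94) and 3 (-0.96) of wildtype CA-Stat3, replicate 2 (-0.54) of sibling WT-Stat3, replicates 2 (-0.97) and 3 (-0.76) of sibling CA-Stat3, replicate 2 (-0.65) of mutant WT-Stat3 or replicates 1 (-0.93), 2 (-1.02) and 3 (-0.89) of mutant CA-Stat3, with limma (-0.81) and in the fit of the compared libraries alone (-0.96). For col7a1l (ENSDARG00000069692) the wildtype values were 9.996 and 24.2 CPM with WT-Stat3 and 16.7, 15.4 and 19.9 CPM with CA-Stat3. Those of siblings were 12.5 and 28.2, then 8.84, 18.6 and 31.8 CPM, and those of mutants 22.2 and 8.37, then 17.3, 16.2 and 15.3 CPM. The genotypes overlapped (-0.10 ± 0.35, not called). The second col7a1l row (ENSDARG00000093135) and col8a1a were at 0.01 ± 0.52 and -0.16 ± 0.32, neither called.

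Of 4 transmembrane rows, both type XXIII chains were lower in mutants and both type XVII chains, which anchor epidermal cells in mammals, were not called. Of all genes, 14.8% were lower against wildtypes and 13.9% against siblings. col23a1a (ENSDARG00000095339) had 5.88 and 6.19 CPM in wildtype WT-Stat3 libraries and 8.24, 13.4 and 8.12 CPM in wildtype CA-Stat3 libraries. In the same order siblings had 6.49 and 9.29, then 8.6, 14.2 and 10.1 CPM and mutants 1.59 and 2.09, then 5.62, 1.92 and 4.24 CPM. Mutants lay below wildtypes and siblings within each construct, and col23a1a fell by 1.52 ± 0.32 against wildtypes and 1.78 ± 0.32 against siblings (edgeR adjusted p = 0.00215 and 0.000789). In wildtypes col23a1b (ENSDARG00000089078) was at 2.35 and 1.96 CPM with WT-Stat3 and at 0.999, 0.941 and 2.56 CPM with CA-Stat3. Siblings were at 0.943 and 0.547, then 0.983, 1.15 and 1.19 CPM, and mutants at 0 and 0, then 0.577, 0.427 and 0 CPM. No read of this row was counted in mutants with WT-Stat3. Against a floor of 3 counts over that group, its level there was at least 5.24-fold lower than in wildtypes and at least 1.81-fold lower than in siblings with WT-Stat3, and the row was called lower in both averages (edgeR adjusted p = 0.00273 and 0.0231), the second lost without replicate 1 (-3.23) of sibling WT-Stat3 or replicates 1 (-3.50) and 2 (-3.50) of mutant WT-Stat3, and with limma (-2.37), where the values in brackets depend on the prior count and are no bounds. Wildtype libraries held 5.29 and 5.29 CPM of col17a1b (ENSDARG00000079011) with WT-Stat3 and 4.12, 2.71 and 6.98 CPM with CA-Stat3. Sibling libraries held 5.42 and 5.47, then 2.83, 2.15 and 2.57 CPM, and mutant libraries 3.17 and 4.18, then 8.07, 2.35 and 4.61 CPM. Both type XVII rows overlapped between genotypes, with col17a1b at -0.19 ± 0.34 and col17a1a at -0.57 ± 0.53 against wildtypes. The values of col17a1a were 2.0 to 5.06 CPM in wildtypes, 0.182 to 4.3 CPM in siblings and 0.679 to 3.6 CPM in mutants.

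Within each construct, mutants were compared with wildtypes and siblings separately. With WT-Stat3, 12 collagen rows were lower and 1, col15a1b, higher than in wildtypes, where 5.94% of all genes were lower and 6.14% higher. With CA-Stat3, 24 were lower and 1, col15a1b again, higher, where 7.43% of all genes were lower and 7.26% higher. Against siblings, 7 rows were lower with WT-Stat3 (3.6% of all genes, and 7.48% called in either direction) and 25 with CA-Stat3 (8.31% of all genes), and 0 were higher (3.88% and 7.49% of all genes). COL1A1 fell by 2.25 ± 0.42 with WT-Stat3 and 2.69 ± 0.34 with CA-Stat3 against wildtypes, COL5A2 by 2.56 ± 0.37 and 2.29 ± 0.29, and col15a1b rose by 1.74 ± 0.38 and 1.14 ± 0.31. The larger counts with CA-Stat3 come with 3 libraries a group rather than 2, but the medians of the 51 rows differed too. Against wildtypes these were -0.74 with WT-Stat3 and -1.31 with CA-Stat3, where those of all genes were -0.032 and -0.0074. Against siblings they were -0.78 and -1.31, where those of all genes were -0.057 and 0.0052. The part of library number in the counts was not tested. The difference itself was tested as an interaction, in which 0 collagen rows and 0% of all genes were called against either genotype (edgeR, 1 collagen row each at an unadjusted p under 0.05, 929 genes against wildtypes and 992 against siblings; DESeq2 and limma called 0 collagen rows). The median interaction of the 51 rows was -0.34 against wildtypes and -0.37 against siblings, where those of all genes were 0.014 and 0.034. It was below 0 for 34 and 36 of the 51 rows, and for 48.9% and 47.7% of all genes. The counts with WT-Stat3 rest on single libraries. The 13 calls against wildtypes became 5 and 4 without wildtype replicate 1 or 2 and 6 and 3 without mutant replicate 1 or 2. The 7 against siblings became 11 and 0 without sibling replicate 1 or 2, 3 and 0 without mutant replicate 1 or 2, and 4 without replicate 3 of mutant CA-Stat3. With CA-Stat3, the 25 calls against wildtypes became 14 and 16 without wildtype replicate 2 or 3 and 10 without mutant replicate 2 or 3. The 25 against siblings became 16 without sibling replicate 3 and 13 and 14 without mutant replicate 2 or 3. The shares of all genes called in these fits are not given here, so the changes in count are not read as particular to collagens.

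No collagen row passed the test for sibling minus wildtype. edgeR called 0 of 51 rows and 0% of all genes, with 4 collagen rows at an unadjusted p under 0.05, where 9.5% of all genes passed that p (DESeq2 called 0 rows with 6 unadjusted, limma 0 with 3), and the median of the 51 rows was 0.05. That count is not above the share of all genes, and the 4 rows are given as values only. These rows, named after their values were seen, were COL4A1 (-0.50 ± 0.18), COL4A2 (-0.60 ± 0.19), col27a1b (-0.79 ± 0.28) and col15a1b (0.53 ± 0.24). For COL4A1, COL4A2 and col27a1b the sibling libraries all lay below the wildtype libraries in both constructs, a separation that 1.96% of all genes showed. The COL4A1 values were 562 and 485 CPM in wildtypes against 335 and 405 CPM in siblings with WT-Stat3, and 344, 448 and 380.5 against 279, 334 and 218 CPM with CA-Stat3. The endothelial marker sum was also lower in siblings within each construct, at 3501 to 4244 CPM against 4258 to 5210.2 CPM with WT-Stat3 and 1791 to 3303 CPM against 3326 to 3661 CPM with CA-Stat3. Its part in the type IV values was not tested.

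CA-Stat3 was compared with WT-Stat3 to read the effect of Stat3 activity on collagens. Averaged over genotypes, edgeR called 0 of 51 rows and 0% of all genes. At an unadjusted p under 0.05, 9 collagen rows were higher and 1 lower with CA-Stat3, where 12.7% of all genes passed that p, and DESeq2 and limma also called 0 rows. The median of the 51 rows was 0.27 against 0.04 for all genes. Per genotype it was 0.34 in wildtypes, 0.41 in siblings and -0.0027 in mutants, and 0 rows were called in any genotype (0% of all genes). At an unadjusted p under 0.05, edgeR had 3, 8 and 3 rows, where 4.02%, 4.18% and 10.2% of all genes passed that p. DESeq2 had 3, 8 and 4 rows, where 4.02%, 4.08% and 10.2% of all genes passed. Limma had 9, 14 and 0 rows, where 6.91%, 4.99% and 4.84% of all genes passed. The 9 rows higher before adjustment, named after their values were seen, were COL1A1, COL5A2, COL11A1, COL11A2, col6a1, col9a1b, COL9A2, col9a3 and col23a1a. col9a3 had 19.3 and 16.5 against 74.8, 41.1 and 31.2 CPM in wildtypes, 8.84 and 42.6 against 59.1, 43.7 and 85.5 CPM in siblings and 12.7 and 3.83 against 21.2, 10.5 and 9.58 CPM in mutants, WT-Stat3 first. The constructs were separated in wildtypes and siblings and overlapped in mutants (1.15 ± 0.34, edgeR adjusted p = 0.235). COL8A2 was the row lower before adjustment (-0.79 ± 0.23, edgeR adjusted p = 0.235). Without a filter on low counts 9 rows were called, 8 higher and 1 lower (386 of 27820 genes, 1.39%). In wildtypes the muscle sum was 234 to 359 CPM with CA-Stat3 against 112 to 123 CPM with WT-Stat3, and the endothelial sum 3326 to 3661 against 4258 to 5210.2 CPM, without overlap. The muscle sums overlapped in siblings, at 15.4 and 746 CPM with WT-Stat3 against 238, 324 and 1833 CPM with CA-Stat3, and in mutants, at 87.6 and 29.6 against 142, 116 and 64.5 CPM. The endothelial sums did not overlap in siblings either, at 1791 to 3303 CPM with CA-Stat3 against 3501 to 4244 CPM with WT-Stat3. In mutants the endothelial sums overlapped, at 2903 to 4844 against 4144 to 4433 CPM. Other sums also separated the constructs in wildtypes, CA-Stat3 first. These were notochord (101 to 133 against 86.1 to 99.6 CPM), neural crest (21.1 to 27.3 against 14 to 18.6 CPM) and epidermis (2358 to 3232 against 2252 to 2349 CPM). Mesenchyme, cartilage, macrophage and erythroid sums overlapped there. Notochord and neural crest sums were separated in siblings too, and neural crest and erythroid sums in mutants. The part of these cells was not tested.

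Of 40 enzymes, chaperones and other genes of collagen processing tested, 4 were higher and 2 lower in mutants against wildtypes, with a median of -0.01, where 13.9% of all genes were higher and 14.8% lower. Against siblings 9 were higher and 3 lower, with a median of 0.06, where 12.4% of all genes were higher and 13.9% lower (6 and 6 without replicate 1 of mutant WT-Stat3). The counts against wildtypes are below these shares, so the genes that follow are given as values of single genes. P4HA2, a subunit of the prolyl hydroxylase that stabilises the helix, had 25.8 ± 4.59 CPM in wildtypes and 48 ± 8.01 CPM in mutants (SD, n = 5 each) and rose by 0.95 ± 0.17 (edgeR adjusted p = 0.00056). A SERPINH1 row (ENSDARG00000075954), the collagen chaperone HSP47, had 48.8 ± 7.43 CPM in wildtypes and 97.6 ± 29.3 CPM in mutants (SD, n = 5 each) and rose by 1.02 ± 0.20 (edgeR adjusted p = 0.00124). The second SERPINH1 row (ENSDARG00000019949) was at 0.79 ± 0.34, not called. The lysyl hydroxylase PLOD1 rose by 0.99 ± 0.19 (edgeR adjusted p = 0.00132). SPARC, a collagen-binding glycoprotein, had 77.8 ± 9.25 CPM in wildtypes and 48.3 ± 3.53 CPM in mutants (SD, n = 5 each) and fell by 0.68 ± 0.12 (edgeR adjusted p = 0.000782), and the procollagen protease BMP1 (ENSDARG00000028071) fell by 0.83 ± 0.17 (edgeR adjusted p = 0.00193). PLOD1 and BMP1 were named after their values were seen. With no filter on low counts, 6 genes of the list were lower against wildtypes. P4HB, with the most counts of the list, was at 0.23 ± 0.13 and not called. Summed over the list, mutants had 1725 to 2585 CPM and wildtypes 1863 to 2408 CPM, which overlap.

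**Figure D4:**
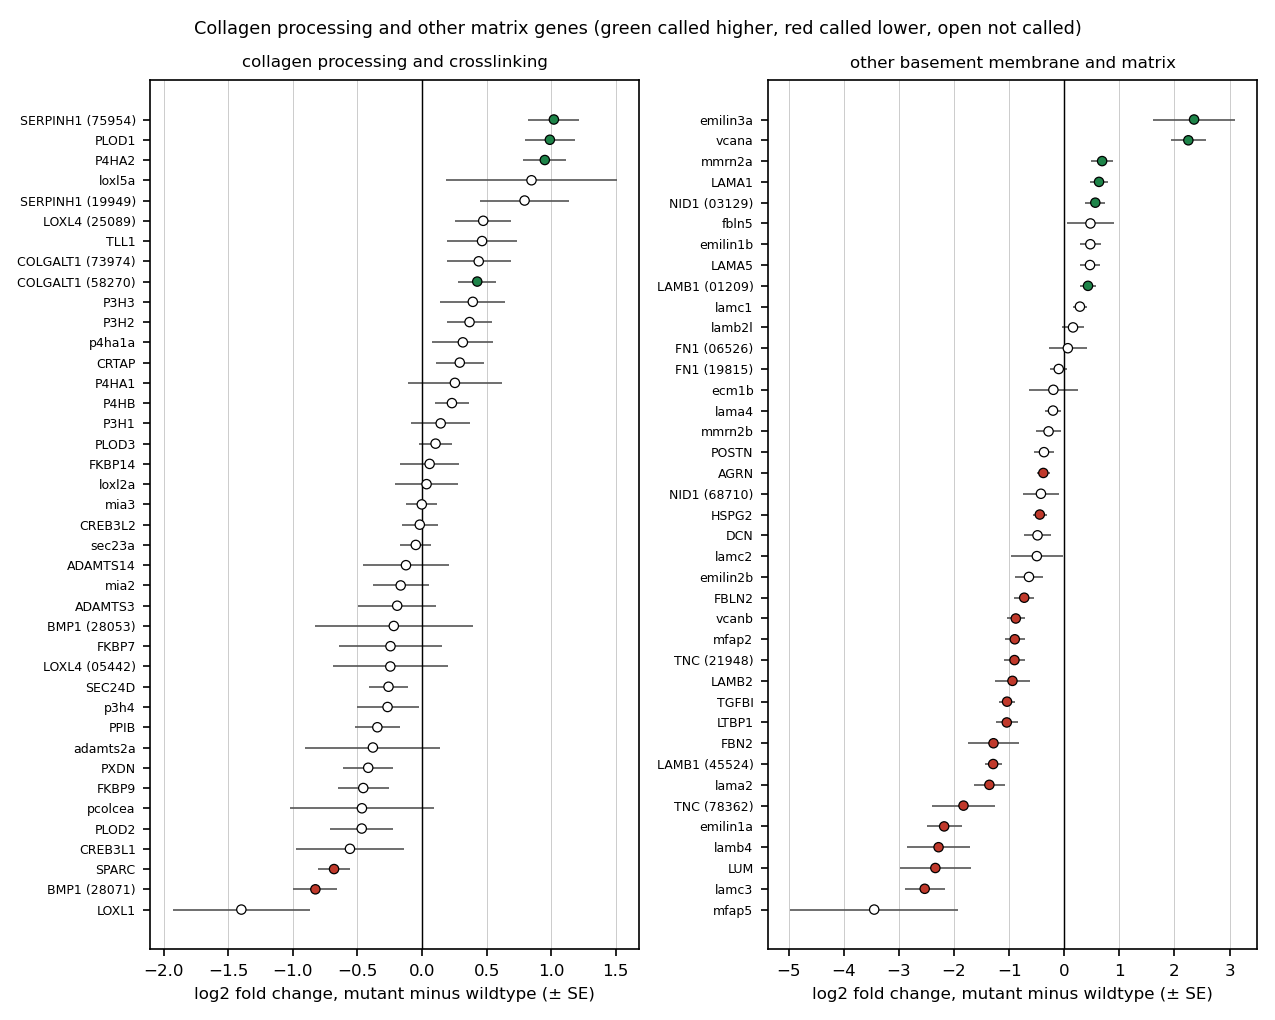
Log2 fold change with its standard error (x axis, mutant minus wildtype averaged over constructs) of the collagen processing genes (left, 40 tested) and of other basement membrane and matrix genes (right, 39 tested), ordered by size. Green points were called higher, red points called lower and open points not called by edgeR, with 4 green and 2 red on the left and 6 green and 17 red on the right. Digits in brackets end the identifier of rows that share a name.

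Of 39 other matrix genes tested, 6 were higher and 17 lower against wildtypes, with a median of -0.44, where 13.9% of all genes were higher and 14.8% lower. The 6 higher genes are near that share and became 2 without replicate 1 of wildtype WT-Stat3 and 3 without replicate 2 of wildtype WT-Stat3, replicate 2 of mutant WT-Stat3 or replicate 3 of mutant CA-Stat3. Against siblings 9 were higher and 14 lower. Lower calls against wildtypes were lost in some settings too. With limma, for example, the laminin chains LAMB2 (-0.94) and lamb4 (-2.74), named after their values were seen, missed the threshold. A LAMB1 row (ENSDARG00000045524), a laminin chain of basement membranes, had 121 ± 23.8 CPM in wildtypes and 50.4 ± 4.83 CPM in mutants (SD, n = 5 each) and fell by 1.29 ± 0.15 (edgeR adjusted p = 2.06e-05). The second LAMB1 row (ENSDARG00000101209), named after its values were seen, went the other way and was called higher. Its call was lost in several settings, among them no filter on low counts (0.37) and the fit without replicate 1 of wildtype CA-Stat3 (0.39). The laminin chain lamc3 had 15.6 ± 5.86 CPM in wildtypes and 2.67 ± 1.43 CPM in mutants (SD, n = 5 each) and fell by 2.53 ± 0.37 (edgeR adjusted p = 0.000112). The proteoglycan vcana had 8.18 ± 0.765 CPM in wildtypes and 39.8 ± 17.5 CPM in mutants (SD, n = 5 each) and rose by 2.25 ± 0.31 (edgeR adjusted p = 8.43e-05). lamc1, a laminin chain shared by most basement membranes and the list's gene with the most counts, was at 0.28 ± 0.13 and not called. Of 11 collagen receptors 1 was lower and 0 higher, which is not above the 14.8% of all genes that were lower. Its values are given as those of a single gene. This was ITGA1, the integrin chain that binds collagen IV and I, which had 157 ± 44.1 CPM in wildtypes and 62.9 ± 12.4 CPM in mutants (SD, n = 5 each). It fell by 1.33 ± 0.17 (edgeR adjusted p = 4.12e-05). Of 15 matrix proteases, 1 was higher and 7 lower against wildtypes, and 1 higher and 8 lower against siblings (1 higher and 4 lower without replicate 2 of mutant WT-Stat3). The gelatinase MMP2 had 45.9 ± 5.44 CPM in wildtypes and 109 ± 29.3 CPM in mutants (SD, n = 5 each) and rose by 1.26 ± 0.18 (edgeR adjusted p = 0.000105). MMP9, the other gelatinase and also a neutrophil product, fell by 2.64 ± 0.36 and mmp25b, a leukocyte protease in mammals, by 1.81 ± 0.27 (edgeR adjusted p = 7.22e-05 and 0.000159), beside the lower macrophage and neutrophil sums given above. The part of those cells in the protease values was not tested. The cathepsin ctsla, with the most counts of the list, fell by 0.88 ± 0.19 (edgeR adjusted p = 0.00232).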

How the data were processed

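Messenger RNA of sorted kdrl-positive cells was extracted with a microprep kit, selected with oligo dT and made into low-input libraries, per the labels' protocols. The values are read counts per gene as deposited by the authors. Per the submitters' processing notes, the tools named are STAR 2.4.2a, featureCounts, Trim Galore, DESeq2 and Picard and the build is GRCz10. Not given in the sources used here are the annotation release, the strand setting and how multi-mapping reads were counted, so the split of counts between near-identical paralogs is uncertain. All columns had a sample (0 left out).

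Counts were analysed here in R 4.3.3 with edgeR 4.0.16 (quasi-likelihood test, TMM scaling, 1 coefficient per group over all 15 libraries, 9 residual degrees of freedom). Rows were kept by filterByExpr (minimum count 10, minimum total 15), which left 18020 of 27820 genes with any count. The averages over constructs weight both equally. The reported CPM are TMM-scaled, the SE was taken as the size of the log2 fold change divided by the root of its F statistic, and p-values were BH-adjusted over all genes tested with a threshold of 0.05. Alternatives used DESeq2 1.42.0, limma 3.58.1 (voom with quality weights), RLE factors, only the libraries compared, filters that were absent or stricter (total 50, with 5 libraries at 1 CPM), each library left out, and replicate numbers as a block. The edgeR step was tested on simulated counts. A table of gene names gave a symbol to 26269 of the 32105 identifiers.

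Any collagen row could be named. Per class, up to 3 rows with the highest mean CPM, and per comparison up to 5 called rows with the smallest p in each direction, were the rows given by library. Of other lists, up to 3 called genes and the gene with the highest mean CPM could be named, and rows named otherwise are marked where they appear. The members and lists were chosen with earlier results of these data known. LUM, DCN and mmp13a are in 2 lists each. Rows that share a symbol were kept apart by identifier.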

Additional observations from a re-analysis of the deposited data

How the results depend on the processing

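Of the 30 collagen rows called against wildtypes and the 29 called against siblings, none changed direction under any of up to 24 alternatives (other normalization, tools and filters, fits of the groups compared alone, the replicate block, thinning, removal of the row zgc:158463 and leaving out each library), and 1279 of their values kept the call while 134 missed the threshold. Of rows not called, 30 values passed it, among them those of COL2A1 (ENSDARG00000069093), COL4A2, col28a2a, COL8A2 and col9a1b against wildtypes. Leaving out each library in turn gave 18 to 33 called rows for mutant minus wildtype and 17 to 29 for mutant minus sibling. Within WT-Stat3 it gave 3 to 14 against wildtypes and 0 to 11 against siblings, and within CA-Stat3 10 to 28 and 13 to 28. The share of all genes called lower moved in these fits too. Without 1 mutant CA-Stat3 library it was 12.4% to 16.7% against wildtypes and 11.1% to 15.5% against siblings. These ranges are therefore not read as particular to collagens. Limma called 18 rows for mutant minus sibling, where it called 3761 of all genes and edgeR 4729. Within WT-Stat3 limma called 5 rows against wildtypes (998 of all genes, edgeR 2177) and 0 against siblings (537 of all genes, edgeR 1347). Within WT-Stat3 against siblings, DESeq2 called 12 rows and 1984 of all genes. There the fit of the compared libraries alone called 1 row and the fit with no filter on low counts 20. The share of all genes in either fit is not given here. With no filter, 1 row was called for sibling minus wildtype, 9 for CA-Stat3 minus WT-Stat3 and 1 for that difference in wildtypes. The share of all genes beside the 9 rows is given above, and those beside the single rows are not given here. These counts are therefore not read as particular to collagens. The causes were not tested. With the replicate block, 30 rows were called against wildtypes and 30 against siblings, where 15.8% and 14.6% of all genes were called lower. Against siblings the block lost the col7a1 call (-0.81, edgeR adjusted p = 0.067) and called COL14A1 higher (0.50, edgeR adjusted p = 0.0369) and col9a1b lower (-1.70, edgeR adjusted p = 0.0449). Over 33 pairs of libraries with the same number, deviations correlated at -0.15 to 0.34 (median 0.083), with 9 pairs over 0.1. Libraries with different numbers were not compared, so these values cannot tell whether the numbers pair libraries. The main fit has no block.

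The log2 fold changes that changed sign were of rows that were not called. Against wildtypes, the col7a1l row ENSDARG00000093135 was at -0.018 with DESeq2, -0.22 with limma, -0.048 with no filter, -0.012 with the stricter filter, -0.26 when thinned and -0.027 without zgc:158463. COL9A1 was at -0.12 with limma, -0.056 with no filter, -0.018 with the stricter filter, -0.049 with the replicate block and -0.033 without zgc:158463. col19a1 was at -0.073 against wildtypes and 0.57 against siblings with limma, and COL8A2 at 0.022 against siblings when thinned. Leaving out each library gave, against wildtypes, col7a1l (ENSDARG00000069692) -0.60 to 0.24, col7a1l (ENSDARG00000093135) -1.48 to 0.41, col5a3a -0.27 to 0.14, col5a2b -0.48 to 1.07, col8a1a -0.48 to 0.032, col28a1b -0.54 to 0.36, col19a1 -0.35 to 0.37, COL4A4 -0.62 to 0.65 and COL9A1 -0.28 to 0.18. Against siblings it gave col7a1l (ENSDARG00000069692) -0.79 to 0.0051, col7a1l (ENSDARG00000093135) -1.70 to 0.18, col5a2b -0.57 to 0.97, col17a1a -0.78 to 1.18, COL4A2 -0.018 to 0.26, col8a1a -0.49 to 0.0094, col17a1b -0.072 to 0.38, col19a1 -0.58 to 1.42 and COL8A2 -0.23 to 0.17. The causes were not tested. Without replicate 1 of mutant WT-Stat3 the median of all genes for mutant minus wildtype was -0.15. Thinning and the removal of zgc:158463 were chosen after the data were seen. Low counts limit most the rows at a few CPM.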
